A study of Mus musculus with 40 samples.

Results

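The 10 genes described here are Nnt and 9 genes of the defence against superoxide and peroxides, namely Sod1, Sod2, Sod3, Cat, Gpx3, Gpx4, Txnrd1, Gclm and Hmox1. They were taken by symbol and are 10 of 55335 genes listed for aortas and 10 of 55382 listed for kidneys. RNA-seq was performed on aortas and kidneys of mice whose endothelial EGF receptor gene was deleted with Tek-cre (EC-EGFR-KO) and of EC-EGFR-WT mice, under standard fat diet (SFD, 10% of energy from fat) or high fat diet (HFD, 60% of energy from fat) for 18 weeks from an age of 6 weeks. Each of the 4 combinations of genotype and diet held 5 aortas and 5 kidneys, giving 40 libraries. Per the study's methods, the EC-EGFR-WT mice carried the Cre transgene too and lacked the loxP sites. The floxed mice were given as C57BL/6 and the Tek-cre line as C57BL/6J, the substrain known to carry a deletion of several exons of Nnt, and the Nnt genotype of the mice used was not given in the sources used here. The Tek promoter is known to be active in endothelium and in haematopoietic cells as well, and endothelium is only a fraction of either organ. The sex of the mice was not given in the sources used here, and nothing states whether an aorta and a kidney came from the same mouse.

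Superoxide, the first reduced form of oxygen, is converted to hydrogen peroxide by superoxide dismutases. Sod1 acts in the cytosol, Sod2 in the mitochondrial matrix and Sod3 outside the cell, where vessel walls are known to store it. Hydrogen peroxide is then removed by catalase (Cat) in peroxisomes and by glutathione peroxidases, of which Gpx3 is the secreted plasma form made mainly by the proximal tubule of the kidney and Gpx4 the form that reduces lipid peroxides in membranes. The reducing power comes from glutathione, whose synthesis is modulated by Gclm, from thioredoxin, which Txnrd1 keeps reduced, and from NADPH, which Nnt regenerates in mitochondria. Hmox1 degrades heme and is, with Gclm and Txnrd1, a classic target of the transcription factor NRF2.

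Total counts were between 17520161 and 36452741 in aortas and between 19643033 and 48833447 in kidneys. All 10 genes passed the filter on low counts in both organs. Levels are given as FPM, counts scaled to 1000000 counts in tested genes after TMM scaling, and a gene was called with an adjusted p below 0.05 over all genes tested by edgeR's quasi-likelihood test with Benjamini-Hochberg adjustment. Smooth muscle markers summed to between 25923 and 41473 FPM in aortas and to between 79.9 and 134 FPM in kidneys, while proximal tubule markers summed to between 21531 and 54489 FPM in kidneys, as the organ labels state. Egfr, the targeted gene, was at 39.6 ± 8.93 FPM (mean ± SD, n = 5) in EC-EGFR-WT and 44.0 ± 5.70 FPM in EC-EGFR-KO aortas under SFD. Its log2 difference between genotypes averaged over diets was 0.14 ± 0.10 in aortas and -0.01 ± 0.12 in kidneys (SE, adjusted p = 0.73 and 0.99). The counts of these mixed tissues thus did not show the deletion. One pair of libraries in each organ was nearly identical across groups: aortas R-1 (labelled EC-EGFR-WT, SFD) and R-12 (labelled EC-EGFR-KO, SFD), and kidneys a1 (labelled EC-EGFR-KO, HFD) and a12 (labelled EC-EGFR-WT, HFD). Each pair differed by less than the sampling noise although its libraries carry different genotype labels, so that 1 library may have been deposited under both labels and n = 5 may hold fewer than 5 separate mice, and the results below are given with and without both where the call or value depends on them.

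Nnt had few counts in every library, below 1 FPM in all 20 aortas and between 0.951 and 2.23 FPM in kidneys, with 19 of 20 kidneys above 1 FPM. In aortas, its counts were 4, 6, 8, 9 and 9 in EC-EGFR-WT under SFD, 10, 10, 11, 12 and 14 in EC-EGFR-WT under HFD, 7, 8, 9, 11 and 11 in EC-EGFR-KO under SFD and 5, 8, 11, 16 and 19 in EC-EGFR-KO under HFD. In kidneys, they were 23, 31, 32, 39 and 64 in EC-EGFR-WT under SFD, 34, 46, 48, 51 and 70 in EC-EGFR-WT under HFD, 28, 34, 38, 44 and 48 in EC-EGFR-KO under SFD and 23, 26, 30, 32 and 68 in EC-EGFR-KO under HFD. No kidney fell below 23 counts and no aorta rose above 19, in libraries of at least 17520161 counts.

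**Figure D1:**
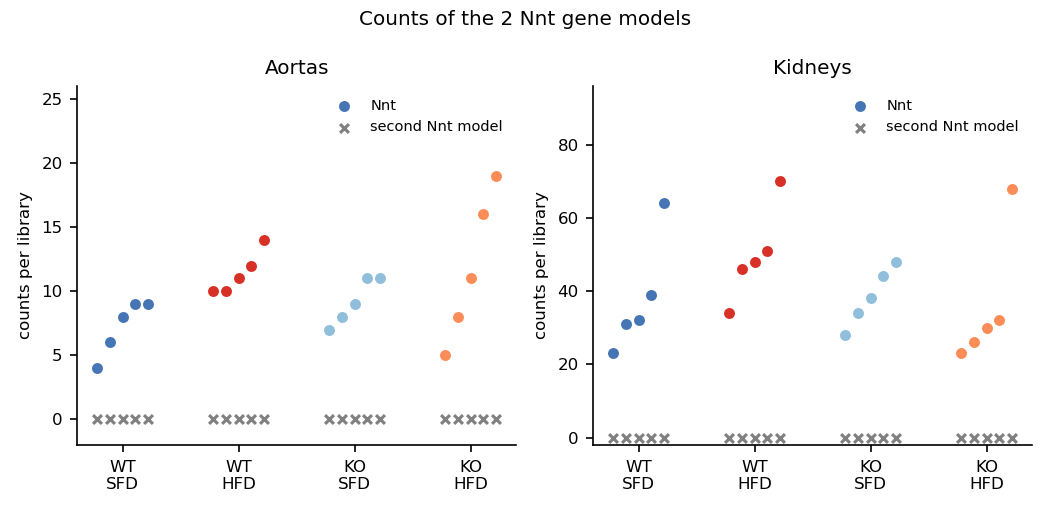
Counts of Nnt (coloured points) and of the second Nnt gene model (grey crosses) in each aorta (left) and kidney (right), by genotype and diet, n = 5 per group. Nnt had between 4 and 19 counts in aortas and between 23 and 70 in kidneys, and the second model had 0 in all 40 libraries.

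The count tables carried a second gene model of the same name (ENSMUSG00000116207, chr13:119335528-119408952 on the minus strand), with 0 counts in all 40 libraries. It lies within Nnt itself (ENSMUSG00000025453, chr13:119335448-119408997, minus strand) in the GENCODE M21 annotation of GRCm38, and its exons covered 3339 of the 3464 bases, or 96.4%, of the Nnt transcript with the longest coding sequence. A read that falls on exons of 2 genes is left uncounted by featureCounts at its default setting, and the setting used was not given in the sources used here. Among protein-coding genes with at least 90% of that transcript under exons of another listed gene, 290 of 318 (91.2%) were below 1 FPM on average in aortas and 290 of 317 (91.5%) in kidneys. Among those with under 10% covered, 6893 of 16796 (41.0%) and 6614 of 16795 (39.4%) were. Nnt itself was below 1 FPM on average in aortas and above it in kidneys. The counts, given per gene, cannot show which exons were read. The part of the shared exons and of the strain in the low counts was not tested. None of the other 9 genes shared any base of that transcript with another listed gene.

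Gpx3 had the highest level of the 10 genes in kidneys. It took between 1.45% and 3.09% of all counts of a kidney library and ranked between the first and the sixth most counted gene. In aortas, it took between 0.00562% and 0.0122%. Genes on chromosomes 9, X, Y and the mitochondrial genome had 0 counts, as had many on chromosome 8. The shares and ranks thus refer only to the genes counted. Per length of all annotated exons and in EC-EGFR-WT mice under SFD, Gpx3 reached 11956 ± 1015 FPM per kb (mean ± SD, n = 5) in kidneys, followed by Gpx4 at 628 ± 182, Cat at 413 ± 35.6, Sod1 at 221 ± 78.5 and Sod3 at 123 ± 12.6 FPM per kb. Gclm, Sod2, Txnrd1 and Hmox1 followed at 70.3 ± 4.59, 45.1 ± 4.45, 33.8 ± 6.64 and 25.7 ± 12.3 FPM per kb, and Nnt came last at 0.224 ± 0.0717 FPM per kb. Among neighbours in this order, Gpx4 and Cat, and Txnrd1 and Hmox1, differed by less than the sum of their SDs.

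In aortas the order differed. Per length of all annotated exons, Sod3 was at 199 ± 22.0 FPM per kb in aortas of EC-EGFR-WT mice under SFD, ahead of Gpx4 at 149 ± 43.6, Sod1 at 63.6 ± 16.2, Gpx3 at 47.0 ± 2.43 and Cat at 31.3 ± 3.35 FPM per kb. Sod2, Txnrd1, Gclm and Hmox1 lay close together at 8.97 ± 0.938, 7.72 ± 1.48, 5.21 ± 0.746 and 4.94 ± 0.470 FPM per kb. Sod3 and Gpx4, Sod1 and Gpx3, Sod2 and Txnrd1, and Gclm and Hmox1 were the neighbours that differed by less than the sum of their SDs. Nnt again came last, at 0.0399 ± 0.0110 FPM per kb. The order of the upper ranks depended on the length used. Per length of the transcript with the longest coding sequence, which for Sod1 is 641 of 3970 annotated exon bases, Sod1 was at 394 ± 100.1 and Gpx4 at 258 ± 75.6 FPM per kb in aortas, both above Sod3 at 199 ± 22.0. In kidneys, Sod1 was then at 1371 ± 486 and Gpx4 at 1088 ± 316 FPM per kb, both above Cat at 413 ± 35.6, and Gpx3 stayed first at 13598 ± 1154 FPM per kb. The ranks from the sixth on were the same with both lengths in both organs.

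**Figure D2:**
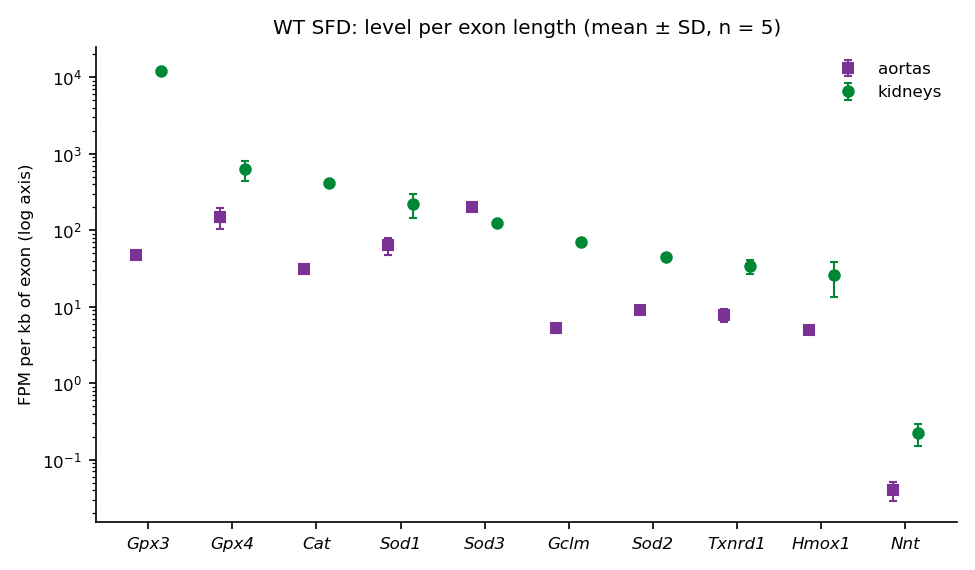
Level of the 10 genes in FPM per kb of exon (log axis) in aortas (squares) and kidneys (circles) of EC-EGFR-WT mice under SFD, mean ± SD over 5 libraries, ordered by the kidney level, with the length of all annotated exons. Sod3 alone was higher in aortas, and Gpx3 differed most, with 47.0 FPM per kb in aortas and 11956 in kidneys.

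All 10 genes were called between aortas and kidneys of EC-EGFR-WT mice under SFD, in a comparison that called 75.2% of the 17514 genes tested. Sod3 was 1.62-fold higher in aortas (log2 difference 0.70 ± 0.10, SE, adjusted p = 2.6e-07), and the other 9 genes were lower, where 36.5% of genes tested were called higher and 38.7% lower. Gpx3 was 254-fold lower in aortas, Gclm 13.5-fold, Cat 13.2-fold, Nnt 5.55-fold, Hmox1 5.20-fold, Sod2 5.02-fold, Txnrd1 4.37-fold, Gpx4 4.22-fold and Sod1 3.48-fold. The adjusted p was at most 2.6e-07 for each of them. Each organ has its own table of counts, so that organ and table cannot be told apart.

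High fat diet changed 5 of the 10 genes in kidneys when averaged over genotypes, and changed them in both directions. Gpx3 rose, while Gclm, Sod3, Cat and Txnrd1 fell. The comparison called 16.4% of the 15943 genes tested, 7.70% higher and 8.70% lower. Within EC-EGFR-WT kidneys, 3 of the 10 genes were called (Gpx3 higher, Gclm and Sod3 lower), where 6.71% of all genes were called, 3.03% higher and 3.68% lower. The same 3 genes were called in the same direction in EC-EGFR-KO kidneys, where 6.34% were called, 3.16% higher and 3.18% lower. With a fold change over 1.5 and a level over 5 FPM required too, Gpx3 in EC-EGFR-KO kidneys was the 1 call left (1.52-fold), and none remained in EC-EGFR-WT kidneys or averaged over genotypes. Leaving out 1 library at a time, the log2 change of Gpx3 in EC-EGFR-KO kidneys ran from 0.52 to 0.65 (adjusted p up to 0.0034). At the lowest of these values the limit of 1.5-fold was not met. Both limits and the adjusted p were met by 2.16% of genes in EC-EGFR-KO kidneys, 2.18% in EC-EGFR-WT kidneys and 2.92% averaged over genotypes. The 5 HFD and 5 SFD libraries did not overlap for Gclm and Gpx3 in EC-EGFR-WT kidneys and for Cat, Gclm, Sod3, Txnrd1 and Gpx3 in EC-EGFR-KO kidneys, and 6.64% and 7.81% of all genes had groups that did not overlap.

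**Figure D3:**
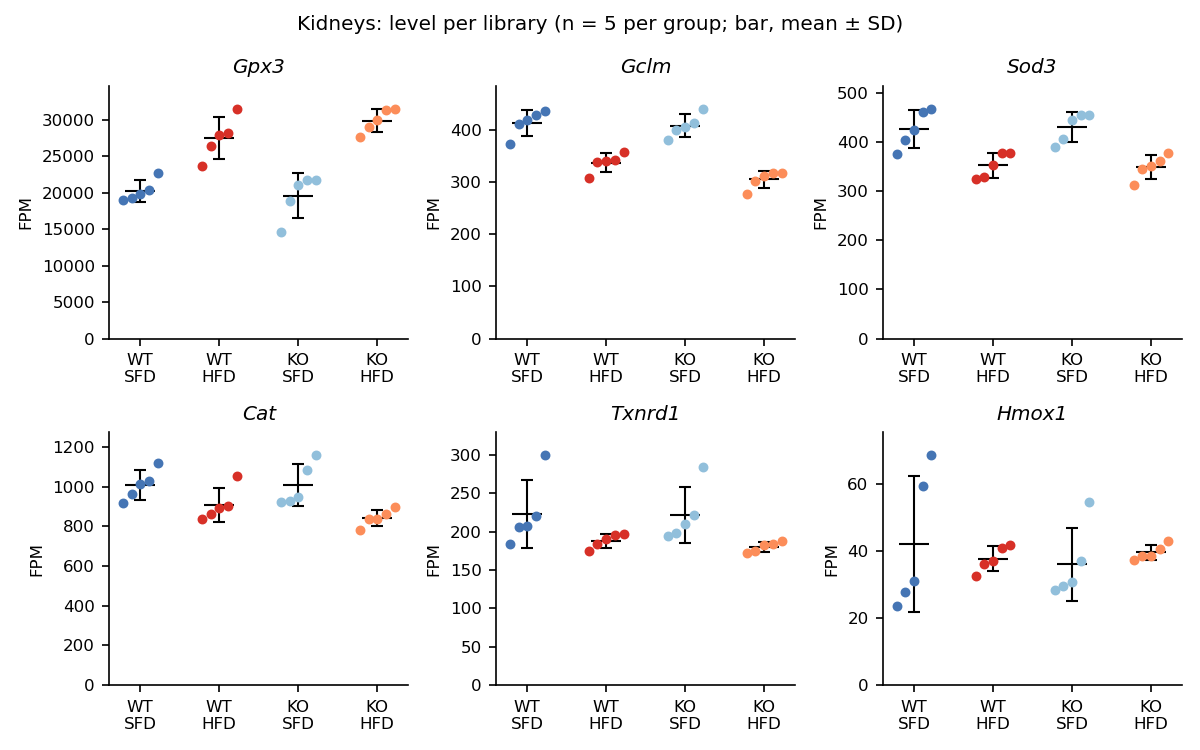
Level of 6 genes in FPM in each kidney library by genotype and diet, n = 5 per group, with the mean ± SD as bars. Gpx3 was at 23678 FPM or more in all 10 HFD kidneys and at 22680.4 FPM or less in all 10 SFD kidneys, and for Gclm the order of the diets was the opposite.

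Among the dismutases, the extracellular Sod3 was called in each genotype. In EC-EGFR-WT kidneys, Sod3 was at 377, 405, 425, 462 and 468 FPM under SFD and at 324, 329.7, 354, 378 and 379 FPM under HFD. In EC-EGFR-KO kidneys, Sod3 was at 389.6, 407, 445, 455 and 456 FPM under SFD and at 313, 346, 351, 363 and 378 FPM under HFD. The KO kidneys did not overlap between diets, and the WT kidneys did by 1 SFD library, a19, which lay just below the 2 highest HFD libraries. The group means were 427 ± 38.4 and 353 ± 25.7 FPM in EC-EGFR-WT and 431 ± 30.4 and 350.2 ± 24.2 FPM in EC-EGFR-KO kidneys (mean ± SD, n = 5). Sod3 changed by -0.28 ± 0.08 (SE, adjusted p = 0.03) on the log2 scale in EC-EGFR-WT and by -0.30 ± 0.08 (SE, adjusted p = 0.019) in EC-EGFR-KO kidneys, and averaged over genotypes it fell by 0.29 ± 0.05 (SE, adjusted p = 0.00071). Without a1 and a12, the averaged change was -0.32 (adjusted p = 0.00067). The call within a genotype rested on single libraries: leaving out any of a13, a14, a15, a16, a18 and a20 ended it in EC-EGFR-WT kidneys (adjusted p up to 0.13), and leaving out any of a3, a4, a7 and a8 ended it in EC-EGFR-KO kidneys (up to 0.073).

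The cytosolic Sod1 was lower on average under HFD but spread widely. In EC-EGFR-WT kidneys, Sod1 was at 597, 626, 704, 889 and 1272 FPM under SFD and at 477, 525, 566, 594 and 775 FPM under HFD. In EC-EGFR-KO kidneys, Sod1 was at 758, 769, 774, 858 and 924 FPM under SFD and at 507, 669.9, 714, 774 and 822 FPM under HFD. The single library a18 was far above the others, and the groups overlapped in both genotypes. Averaged over genotypes, the log2 difference of Sod1 was -0.35 ± 0.13 (SE, adjusted p = 0.062). The mitochondrial Sod2 was at 421 ± 36.7 and 378 ± 30.6 FPM in EC-EGFR-WT kidneys and at 409 ± 19.5 and 406 ± 17.7 FPM in EC-EGFR-KO kidneys under SFD and HFD (mean ± SD, n = 5), with an averaged log2 difference of -0.08 ± 0.05 (SE, adjusted p = 0.28).

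The levels of Sod1 and Gpx4 varied between libraries together with those of other short transcripts. For each library, the median log2 deviation of 606 genes in aortas with transcripts under 1000 bases, minus that of 1868 genes with transcripts over 5000 bases, was taken as a transcript length score, and likewise in kidneys. The transcripts of Sod1 (641 bases) and Gpx4 (995 bases) are the shortest of the 10. Both genes are themselves in the short set, and Sod2 (5861 bases) and Gclm (5589 bases) are in the long set. The score ran from -0.91 to 0.88 in aortas and from -0.50 to 0.53 in kidneys on the log2 scale. Across aortas, with the near-identical pair counted as 1 of 19 libraries, the log2 level of Sod1 followed the score with a Pearson r of 0.988 and a Spearman rho of 0.988 (permutation p = 1e-05 for both, the smallest that 100000 permutations can give, and adjusted p = 5e-05 and 6.67e-05 over 20 relations). For Gpx4 in aortas, r was 0.981 and rho 0.972, with the same permutation p. In kidneys, r was 0.817 for Sod1 (permutation p = 1e-05, adjusted 5e-05) and 0.914 for Gpx4 (permutation p = 1e-05, adjusted 5e-05), with rho of 0.802 and 0.891 (adjusted permutation p = 0.00036 and 6.67e-05). Within the groups of genotype and diet, r rose to 0.964 and 0.977 in kidneys. Without the 2 libraries farthest from the median score, r was 0.989 and 0.975 in aortas and 0.724 and 0.875 in kidneys. Txnrd1, with a transcript of 3622 bases, went the opposite way in aortas (r = -0.854, rho = -0.833, permutation p = 2e-05 and 4e-05, adjusted p = 8e-05 and 0.0002) and r was -0.861 without the 2 farthest libraries. The genes of the long set went opposite ways in aortas. Gclm was lower at higher scores there, with r of -0.660 and rho of -0.693 (permutation p = 0.00269 and 0.00133, adjusted p = 0.00673 and 0.0038). Its r in aortas was -0.872 without the 2 farthest libraries. In kidneys, r of Gclm was -0.034 (permutation p = 0.892, adjusted p = 0.939). Sod2, with the longest transcript of the 10 (5861 bases), was higher at higher scores. It had r of 0.720 and rho of 0.716 in aortas (permutation p = 0.00051 and 0.00087, adjusted p = 0.0017 and 0.0029). In kidneys, its r was 0.673 and its rho 0.621 (permutation p = 0.00161 and 0.00567, adjusted p = 0.0046 and 0.0142). Without the 2 farthest libraries r of Sod2 was 0.705 in aortas and 0.493 in kidneys. For Txnrd1 in kidneys, r was -0.219 and rho was -0.361 (permutation p = 0.373 and 0.128, adjusted p = 0.476 and 0.233).

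**Figure D4:**
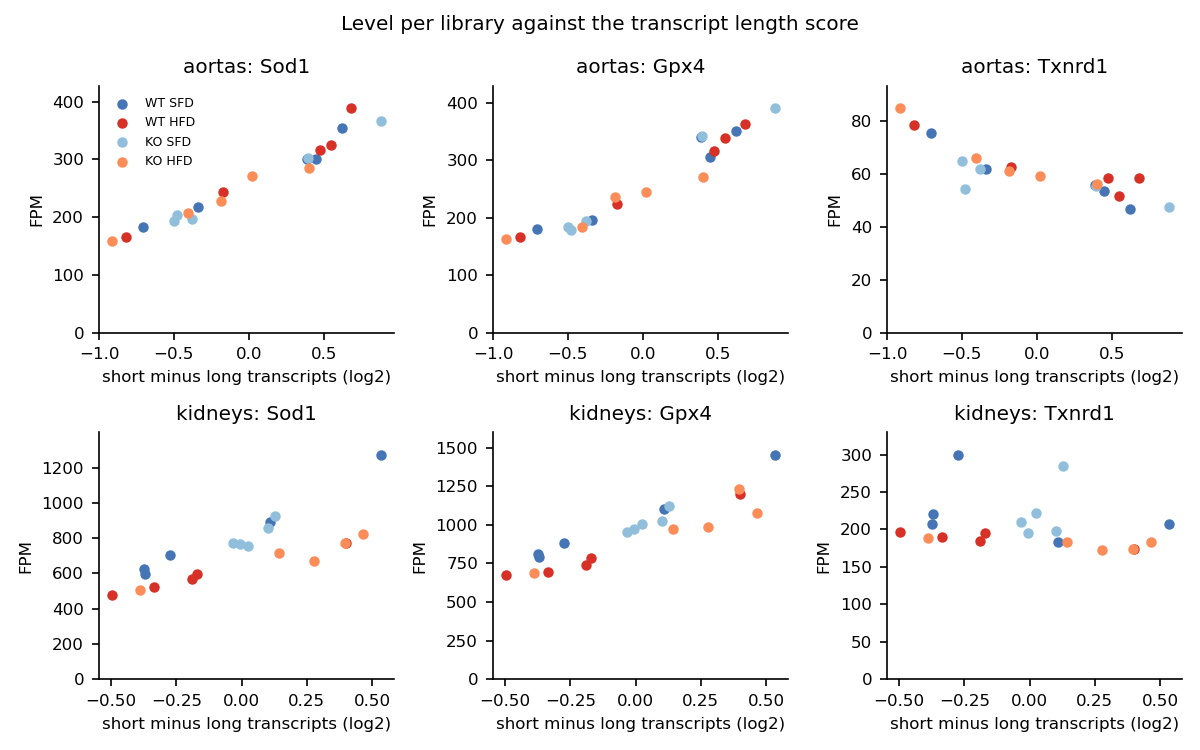
FPM of Sod1, Gpx4 and Txnrd1 in each aorta (top) and kidney (bottom) against the transcript length score of the library (log2, short minus long transcripts), coloured by genotype and diet. Sod1 and Gpx4 were higher at higher scores in both organs (r of 0.988 and 0.981 in aortas), and Txnrd1 was lower in aortas (r of -0.854).

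With this score as a covariate, a fit chosen after the data were seen, Sod1 fell by 0.36 on the log2 scale under HFD averaged over genotypes (adjusted p = 7.9e-07), close to the uncorrected difference, and was called. Gpx4 fell by 0.20 (adjusted p = 0.00015) and Sod2 by 0.09 (adjusted p = 0.047) in that fit. It called 8 of the 10 genes, 1 higher and 7 lower, and 26.6% of all genes. The range of the score overlapped between diets in both genotypes, with medians of -0.28 and -0.19 in EC-EGFR-WT and of 0.02 and 0.28 in EC-EGFR-KO kidneys under SFD and HFD. What the score measures in the tissue or the library was not tested.

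Among the genes that remove peroxides, Gpx3 rose in both genotypes. In EC-EGFR-WT kidneys, Gpx3 was at 19019, 19224, 19830.5, 20369 and 22680.4 FPM under SFD and at 23678, 26367, 27998, 28152 and 31451 FPM under HFD. In EC-EGFR-KO kidneys, Gpx3 was at 14608, 18934, 21102, 21735 and 21770.3 FPM under SFD and at 27605, 29089, 30055, 31356 and 31513 FPM under HFD. The lowest of the 10 HFD kidneys, of which a1 and a12 may be 1 library, was above the highest of the 10 SFD kidneys. How many of all genes separated in this way was not determined. The group means were 20225 ± 1472 and 27529 ± 2836 FPM in EC-EGFR-WT and 19630.0 ± 3036 and 29924 ± 1633 FPM in EC-EGFR-KO kidneys under SFD and HFD (mean ± SD, n = 5). Gpx3 was 1.36-fold higher under HFD in EC-EGFR-WT (log2 difference 0.44 ± 0.10, SE, adjusted p = 0.011) and 1.52-fold higher in EC-EGFR-KO kidneys (log2 difference 0.61 ± 0.10, SE, adjusted p = 0.00082), and 1.44-fold averaged over genotypes (log2 difference 0.53 ± 0.07, SE, adjusted p = 3.2e-05). The interaction of diet and genotype was 0.16 ± 0.15 (SE) and was not called. Without a1 and a12, the averaged log2 difference was 0.49 (adjusted p = 0.00014).

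Cat was lower under HFD, by less than Gpx3 rose. In EC-EGFR-WT kidneys, Cat was at 916, 964, 1012, 1028 and 1118 FPM under SFD and at 834, 860.3, 894, 902 and 1054 FPM under HFD. In EC-EGFR-KO kidneys, Cat was at 922, 929, 948, 1085 and 1157 FPM under SFD and at 783, 835, 838, 861 and 897 FPM under HFD. The EC-EGFR-KO groups did not overlap, whereas a11 of the EC-EGFR-WT HFD group lay above 4 of the 5 SFD libraries. Cat was called averaged over genotypes, where it fell by 0.20 ± 0.06 on the log2 scale (SE, adjusted p = 0.018), and in neither genotype alone, where it changed by -0.15 ± 0.08 (SE, adjusted p = 0.33) in EC-EGFR-WT and -0.26 ± 0.08 (SE, adjusted p = 0.062) in EC-EGFR-KO kidneys. Without a filter on low counts its adjusted p was 0.054. Gpx4 was at 1008 ± 278 and 821 ± 217 FPM in EC-EGFR-WT and at 1017 ± 64.7 and 992 ± 199.5 FPM in EC-EGFR-KO kidneys (mean ± SD, n = 5), and its averaged log2 difference was -0.17 ± 0.13 (SE, adjusted p = 0.41).

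Of the genes that supply reductants, Gclm, the modifier subunit of the enzyme that starts glutathione synthesis, had the smallest adjusted p of the 10 genes averaged over genotypes. In EC-EGFR-WT kidneys, Gclm was at 372, 411, 418, 427 and 436 FPM under SFD and at 308, 339, 339, 341 and 357 FPM under HFD. In EC-EGFR-KO kidneys, Gclm was at 379, 399, 406, 414 and 439.8 FPM under SFD and at 278, 302, 311, 316 and 317 FPM under HFD. All 10 HFD kidneys lay below all 10 SFD kidneys. The means were 413 ± 24.6 and 337 ± 17.5 FPM in EC-EGFR-WT and 407 ± 22.1 and 305 ± 16.4 FPM in EC-EGFR-KO kidneys (mean ± SD, n = 5). Gclm changed by -0.29 ± 0.06 (SE, adjusted p = 0.0056) on the log2 scale in EC-EGFR-WT, by -0.42 ± 0.06 (SE, adjusted p = 0.00022) in EC-EGFR-KO kidneys and by -0.36 ± 0.04 (SE, adjusted p = 8.6e-06) averaged over genotypes. Without a1 and a12 the averaged change was -0.34 (adjusted p = 4.1e-05). The fit of the 2 EC-EGFR-WT groups alone gave an adjusted p of 0.053 for Gclm, 0.056 for Gpx3 and 0.15 for Sod3.

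Txnrd1, the cytosolic thioredoxin reductase, was called only averaged over genotypes and moved with a few libraries. In EC-EGFR-WT kidneys, Txnrd1 was at 184, 207, 207, 221 and 299 FPM under SFD and at 174, 184, 190.0, 196 and 197 FPM under HFD. In EC-EGFR-KO kidneys, Txnrd1 was at 195, 198, 209.9, 222 and 284 FPM under SFD and at 172, 174, 183, 183 and 188 FPM under HFD. The SFD libraries a17 and a9 stood above all others. These 2 and a8 also had the highest sums of 10 immediate-early genes, between 1830 and 2113 FPM, against 130 to 232 FPM in the other 17 kidneys. Averaged over genotypes, Txnrd1 changed by -0.28 ± 0.08 (SE, adjusted p = 0.02) on the log2 scale. Without a8, a9 and a17, left out after the data were seen, the change was -0.14 (adjusted p = 0.068) and was not called, while Gclm changed by -0.36, Sod3 by -0.30, Cat by -0.25 and Gpx3 by 0.49 and each was called. Without a1 and a12, the adjusted p of Txnrd1 was 0.051. Nnt was at 1.47 ± 0.454 and 1.70 ± 0.265 FPM in EC-EGFR-WT and at 1.73 ± 0.360 and 1.33 ± 0.243 FPM in EC-EGFR-KO kidneys under SFD and HFD (mean ± SD, n = 5).

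Hmox1, the inducible heme oxygenase, showed no called difference. In EC-EGFR-WT kidneys, Hmox1 was at 23.7, 27.8, 31.2, 59.4 and 68.6 FPM under SFD and at 32.7, 36.3, 37.1, 40.8 and 41.9 FPM under HFD. In EC-EGFR-KO kidneys, Hmox1 was at 28.5, 29.6, 30.7, 37.2 and 54.6 FPM under SFD and at 37.2, 38.5, 38.7, 40.7 and 43.1 FPM under HFD. The HFD kidneys lay close together, while the SFD kidneys held both the lowest and the highest values, the highest in a17, a20 and a9. The averaged log2 difference was -0.01 ± 0.17 (SE, adjusted p = 0.97), and without a8, a9 and a17 it was 0.26 (adjusted p = 0.24).

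The kidneys also differed between diets in markers of cell types. Macrophage markers summed to between 49.3 and 107 FPM in the 10 SFD kidneys and to between 98.1 and 170.4 FPM in the 10 HFD kidneys, and 8 of the 9 genes were called higher. Proximal tubule markers summed to between 30528 and 54489 FPM under SFD and to between 21531 and 33066 FPM under HFD, with 2 of 9 genes called higher and 3 lower. Their mean log2 level, in which each gene counts alike, overlapped between diets (9.68 to 10.25 under SFD and 10.09 to 10.24 under HFD). Skeletal muscle markers, of which 3 of 8 were tested and 2 called higher, summed to between 12.6 and 45.1 FPM under SFD and to between 45.6 and 82.8 FPM under HFD. White adipocyte markers summed to between 1794 and 3832 FPM under SFD and to between 2872 and 4613 FPM under HFD. Of the 11 tested genes, 2 were called higher and 1 lower. A sum is set mainly by the genes with the highest levels. The mean log2 level of the white adipocyte markers overlapped between diets (1.70 to 4.41 under SFD and 1.90 to 4.65 under HFD). With the mean log2 level of the proximal tubule markers as a covariate, added after the data were seen, the averaged log2 change under HFD was 0.47 for Gpx3, -0.35 for Gclm, -0.32 for Sod3, -0.23 for Cat and -0.18 for Txnrd1, and all 5 were called. The part of macrophages, skeletal muscle and adipocytes was not tested. In mixed tissue, fewer cells of a type and less RNA per cell cannot be told apart.

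The promoters of 4 of the genes called in kidneys are shown because Gclm and Txnrd1 are known NRF2 targets that fell with Cat while Gpx3 rose. They are the 250 bases before the start site in RefSeq (GRCm38.p6), which gave 12 promoters for 7 of the 10 genes, and Nnt, Sod3 and Hmox1 were not matched. The core TGACNNNGC of the antioxidant response element, which NRF2 binds, was searched on both strands and is in capitals where found.
Gclm: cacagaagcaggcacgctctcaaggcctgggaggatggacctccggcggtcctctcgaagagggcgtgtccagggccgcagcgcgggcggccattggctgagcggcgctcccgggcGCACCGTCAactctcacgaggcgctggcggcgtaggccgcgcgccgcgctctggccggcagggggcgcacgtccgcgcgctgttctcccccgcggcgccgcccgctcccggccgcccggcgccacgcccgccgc
Txnrd1: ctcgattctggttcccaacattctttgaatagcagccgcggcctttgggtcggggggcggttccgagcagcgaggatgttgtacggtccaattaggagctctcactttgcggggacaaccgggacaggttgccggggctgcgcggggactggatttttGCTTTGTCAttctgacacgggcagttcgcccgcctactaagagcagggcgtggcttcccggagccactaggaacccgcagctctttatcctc
Gpx3: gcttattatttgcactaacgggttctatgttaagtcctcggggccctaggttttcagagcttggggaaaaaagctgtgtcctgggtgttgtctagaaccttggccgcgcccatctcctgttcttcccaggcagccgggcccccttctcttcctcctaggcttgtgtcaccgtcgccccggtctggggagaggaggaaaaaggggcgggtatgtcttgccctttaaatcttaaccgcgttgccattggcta
Cat: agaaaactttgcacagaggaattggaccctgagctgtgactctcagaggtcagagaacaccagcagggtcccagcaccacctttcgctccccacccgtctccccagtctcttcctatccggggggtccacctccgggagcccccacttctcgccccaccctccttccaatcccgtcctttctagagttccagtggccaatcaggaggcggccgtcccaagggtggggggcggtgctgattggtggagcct
Gclm was read from chr3:122245307-122245556 on the plus strand, Txnrd1 from chr10:82858956-82859205 on the plus strand (1 of its 3 start sites), Gpx3 from chr11:54902604-54902853 on the plus strand and Cat from chr2:103485154-103485403 on the minus strand. The core lay on the reverse strand at 134 to 126 bases before the start of Gclm and at 92 to 84 bases before that of Txnrd1. Sod1 held the third match, at 56 to 48 bases before its start. Of all 32851 RefSeq promoters, 10.2% held the core within the same 250 bases, and 3 of the 12 promoters of these genes did.

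Around these genes, 118 genes of 10 redox lists were followed in kidneys, of which 93 were tested and 18 had 0 counts in every kidney library and were not analysed. Under HFD averaged over genotypes, 12 of the 93 were called higher and 13 lower, where 7.70% of all genes were called higher and 8.70% lower, with a median log2 difference of -0.01 against 0.00 over all genes tested. With 5 to 15 tested genes in a list, the counts of the single lists are descriptions, and 1 or 2 calls among 10 genes lie near the 16.4% of all genes called. In glutathione synthesis and use, 1 of 12 tested genes was called higher and 3 lower. Ggt1, which cleaves extracellular glutathione, changed by -0.46 ± 0.10 (SE, adjusted p = 0.0026), Oplah, which returns 5-oxoproline to glutamate, by -0.42 ± 0.08 (SE, adjusted p = 0.00056), and Gss, glutathione synthetase, by -0.34 ± 0.09 (SE, adjusted p = 0.015), all in the direction of Gclm. Gpx7, a peroxidase of the endoplasmic reticulum, was the gene that rose, by 0.70 ± 0.15 (SE, adjusted p = 0.002), at a level of 1.25 FPM in EC-EGFR-WT kidneys under SFD.

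Of the genes for NADPH supply in mitochondria, where Nnt acts, 2 of 8 tested genes were called, both higher. Glud1, glutamate dehydrogenase, changed by 0.41 ± 0.05 (SE, adjusted p = 2.7e-06) and Me2, the mitochondrial malic enzyme, by 0.53 ± 0.09 (SE, adjusted p = 0.00026). In the cytosolic list, 1 of 6 tested genes was called higher and 2 lower. Idh1, the cytosolic isocitrate dehydrogenase, changed by 0.46 ± 0.07 (SE, adjusted p = 9.3e-05), Nadk, NAD kinase, by -0.28 ± 0.04 (SE, adjusted p = 3.8e-05) and Pgd of the pentose phosphate pathway by -0.21 ± 0.06 (SE, adjusted p = 0.022).

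Of the 13 peroxisomal partners of catalase, 1 was called higher and 4 lower. Ehhadh of peroxisomal fatty acid oxidation changed by -0.64 ± 0.07 (SE, adjusted p = 2.6e-06), and Pxmp2, a channel of the peroxisomal membrane, by -0.36 ± 0.11 (SE, adjusted p = 0.031). Hao2, a peroxisomal oxidase that makes hydrogen peroxide, changed by 0.56 ± 0.09 (SE, adjusted p = 0.00029). The median log2 difference of the list was -0.05.

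Of 10 genes for selenoprotein supply, 2 were called, both higher, near the share over all genes. Selenop, the selenium carrier of plasma, changed by 0.34 ± 0.07 (SE, adjusted p = 0.0012) and Selenow by 0.46 ± 0.11 (SE, adjusted p = 0.0056). In the thioredoxin and peroxiredoxin list, 2 of 15 tested genes were called higher (Sesn2, 0.45 ± 0.12, SE, adjusted p = 0.014, and Sesn1, 0.22 ± 0.07, SE, adjusted p = 0.03) and 1 lower (Msrb1, -0.36 ± 0.10, SE, adjusted p = 0.014).

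Of 10 tested NRF2 regulators and targets, 1 was called higher and 1 lower. Gstm1, a glutathione transferase, changed by -0.83 ± 0.09 (SE, adjusted p = 2.1e-06), the lowest adjusted p of all the lists, and Abcc4, an export pump, by 0.93 ± 0.21 (SE, adjusted p = 0.0049). Of 5 tested genes for copper and metal handling, 2 were called lower, Atp7b, a copper pump, by -0.62 ± 0.11 (SE, adjusted p = 0.00054) and Mt1, a metallothionein, by -0.997 ± 0.29 (SE, adjusted p = 0.022). Among the sources of superoxide and peroxide, 1 of 6 tested genes was called, the renal NADPH oxidase Nox4, by 0.46 ± 0.13 (SE, adjusted p = 0.021). Of 9 tested genes of heme and iron handling 1 was called, the iron exporter Slc40a1, by 0.37 ± 0.11 (SE, adjusted p = 0.022).

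The genes whose levels were most like those of each called gene over the 20 kidneys were, by Pearson r of log2 FPM among genes above 5 FPM, Acaa2 (0.965), Spp2 (0.964) and Lgmn (0.958) for Gpx3, and Mep1a (0.926), Slc7a13 (0.919) and Nxpe3 (0.916) for Gclm. For Sod3 they were Med25 (0.927), Sirt7 (0.921) and BC024386 (0.917), and for Cat they were Papss2 (0.912), Entpd5 (0.886) and Pipox (0.870), of which Pipox is a peroxisomal oxidase. For Txnrd1 they were Hbegf (0.929), a ligand of the EGF receptor, Zbtb2 (0.911) and Mdm2 (0.900). The Spearman rho of these genes was 0.898, 0.723 and 0.795. The libraries a9 and a17, high in immediate-early genes, stood above all others for Txnrd1, and their part in this likeness was not tested. For Hmox1 they were S1pr3 (0.852), Rhoj (0.814) and Ets2 (0.794) in kidneys, and Ccl9 (0.837), Clec10a (0.834) and Anxa7 (0.818) in aortas, where Clec10a is a macrophage lectin. The 20 libraries of an organ share their diets, so that these values describe likeness and carry no test.

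In aortas, none of the 10 genes was called for HFD. In EC-EGFR-WT aortas 0.0132% of the 15122 genes tested were called, in EC-EGFR-KO aortas 0% and averaged over genotypes 0.0529%. At an unadjusted p below 0.05, edgeR gave 1, 1 and 3 of the 10 genes, against 394, 690 and 1013 of the 15122 genes tested. DESeq2's Wald test called 0 of the 10 genes in each comparison. Gpx3 was at 84.9, 89.95, 90.98, 91.6 and 100.1 FPM in EC-EGFR-WT aortas under SFD and at 58.2, 58.6, 79.1, 86.5 and 90.9 FPM under HFD. In EC-EGFR-KO aortas it was at 71.8, 95.5, 99.9, 114 and 134 FPM under SFD and at 65.7, 66.8, 71.5, 80.6 and 101 FPM under HFD. The groups overlapped in both genotypes, and the averaged log2 difference of Gpx3 was -0.35 ± 0.11 (SE, adjusted p = 0.49), lower under HFD where kidneys were higher.

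Sod3, the extracellular dismutase, was at 736, 759.7, 772, 779 and 935 FPM in EC-EGFR-WT aortas under SFD and at 686, 846, 888, 932 and 1053 FPM under HFD. In EC-EGFR-KO aortas it was at 661, 723, 759, 769.8 and 806 FPM under SFD and at 739, 764, 864, 909 and 1113 FPM under HFD. The highest 2 libraries of the organ, R-20 and R-10, were HFD libraries, and the groups overlapped. Averaged over genotypes the log2 difference was 0.19 ± 0.09 (SE, adjusted p = 0.74) for Sod3, 0.14 ± 0.10 (SE, adjusted p = 0.95) for Txnrd1 and 0.25 ± 0.17 (SE, adjusted p = 0.92) for Hmox1.

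The values of the other genes of peroxide removal and reductant supply overlapped between diets. In EC-EGFR-WT aortas under SFD and HFD, Gpx4 was at 275 ± 81.3 and 282 ± 83.0 FPM, Cat at 87.6 ± 8.57 and 86.5 ± 7.28 FPM, Txnrd1 at 58.6 ± 10.9 and 61.9 ± 10.1 FPM and Gclm at 35.1 ± 4.90 and 35.3 ± 5.98 FPM (mean ± SD, n = 5). In EC-EGFR-KO aortas, Gpx4 was at 258 ± 101 and 219.7 ± 45.2 FPM, Cat at 81.0 ± 3.60 and 86.7 ± 8.94 FPM, Txnrd1 at 56.8 ± 6.79 and 65.4 ± 11.4 FPM and Gclm at 34.4 ± 2.73 and 35.0 ± 4.86 FPM. In each pair the diets differed by less than the sum of the SDs.

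The dismutases Sod1 and Sod2 were at 271 ± 69.0 and 96.3 ± 10.1 FPM in EC-EGFR-WT aortas under SFD and at 287 ± 85.8 and 107 ± 11.9 FPM under HFD. In EC-EGFR-KO aortas they were at 252 ± 78.2 and 94.2 ± 8.81 FPM under SFD and at 229.9 ± 51.3 and 97.8 ± 3.81 FPM under HFD. The diets differed by less than the sum of the SDs here too.

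Hmox1 was at 8.30, 8.35, 9.48, 9.83 and 10.4 FPM in EC-EGFR-WT aortas under SFD and at 5.81, 6.44, 9.86, 12.2 and 17.5 FPM under HFD. In EC-EGFR-KO aortas it was at 8.15, 8.70, 9.04, 9.37 and 10.1 FPM under SFD and at 8.33, 8.87, 10.1, 14.7 and 15.7 FPM under HFD. The SFD aortas stayed within a narrow range, and 4 HFD aortas, R-6, R-7, R-16 and R-19, exceeded all of them. R-16 also had the highest sum of macrophage markers, 2406 FPM against 300 to 751 FPM in the other 19 aortas, and R-19 the highest sum of immediate-early genes, 16922 FPM. By the mean log2 level of the macrophage markers, R-16 was at 5.93 and the other aortas at 5.66 or less. R-7 and R-6 were within the range of the other aortas for both sums. The sum of 8 circadian clock genes high in the same phase was 1702 FPM in R-7, 1153 FPM in R-16, 1054 FPM in R-6 and 424 FPM in R-19. It was 1350 FPM in R-11, an SFD aorta with Hmox1 at 10.1 FPM. The part of these sums in the Hmox1 level was not tested.

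For Nnt, the EC-EGFR-WT aortas did not overlap between diets, at 0.211, 0.253, 0.263, 0.381 and 0.395 FPM under SFD and 0.559, 0.583, 0.605, 0.702 and 0.705 FPM under HFD, which held for 0.410% of all genes. These levels correspond to 4 to 9 and 10 to 14 counts per library. The log2 difference was 1.06 ± 0.34 (SE, adjusted p = 1), and 0.77 ± 0.24 (SE, adjusted p = 0.47) averaged over genotypes. Of the 118 genes of the redox lists, 89 were tested in aortas and 0 were called under HFD by edgeR, the smallest adjusted p being 0.21, for the glutathione transferase Gsta3.

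**Figure D5:**
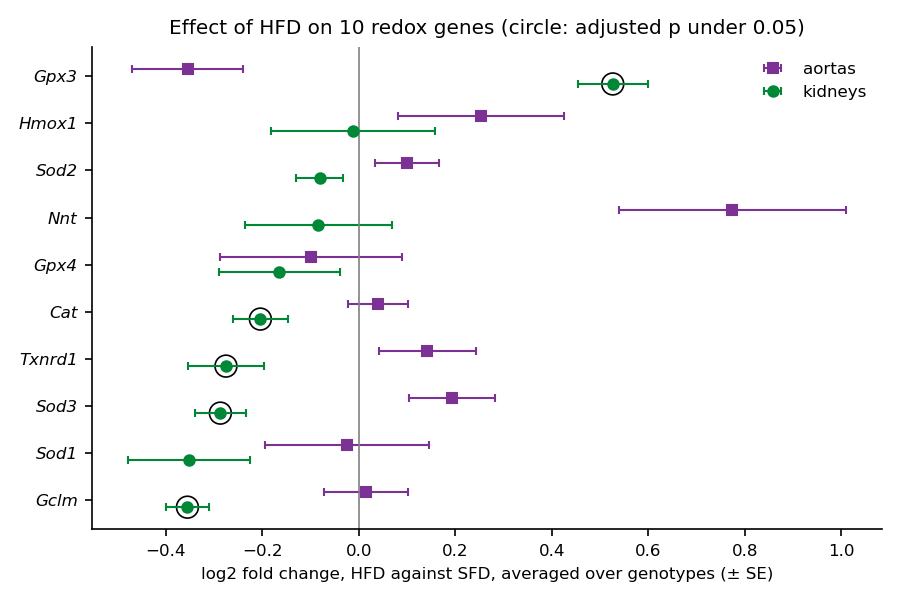
Log2 fold change of the 10 genes under HFD against SFD, averaged over genotypes, in aortas (squares) and kidneys (circles), with SE as bars and a circle around values with an adjusted p below 0.05. Gpx3 was at 0.53 in kidneys and -0.35 in aortas, and the 5 circled values are all from kidneys.

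The effect of HFD was then compared between organs in one fit of all 40 libraries. It differed for 5 of the 10 genes, 4 with a higher and 1 with a lower value in aortas than in kidneys, where 6.5% of all genes were called, 2.53% higher and 3.97% lower. The log2 difference of the effects, aortas minus kidneys, was -0.88 ± 0.14 (SE, adjusted p = 0.0001) for Gpx3, 0.49 ± 0.10 (SE, adjusted p = 0.0031) for Sod3 and 0.38 ± 0.10 (SE, adjusted p = 0.014) for Gclm. It was 0.43 ± 0.13 (SE, adjusted p = 0.04) for Txnrd1 and 0.87 ± 0.27 (SE, adjusted p = 0.041) for Nnt. Without the 4 near-identical libraries only Gpx3 and Sod3 were called. For the remaining 5 genes the log2 difference lay between 0.07 (Gpx4) and 0.34 (Sod1), and none was called.

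Between genotypes, none of the 10 genes was called in any comparison. In aortas, 0% of genes were called under SFD, 0% under HFD and 0.0198% averaged over diets, and the interaction of diet and genotype called 0%. In kidneys, all 4 comparisons called 0%, and 0 genes without a1 and a12 too. R-1 and R-12 carry different genotype labels under the same diet. Without them, 0 of 15254 genes were called in aortas under SFD, 21 under HFD and 131 averaged over diets. None of the 10 genes was called between genotypes in those fits either. With all libraries and at an unadjusted p below 0.05, edgeR gave 1 of the 10 genes in 1 of the 8 comparisons and 0 in the others. It was Gclm in kidneys under HFD (log2 difference -0.14 ± 0.06, SE, adjusted p = 0.81), where 546 of the 15943 genes tested had such a p. Over the 4 comparisons of an organ, between 127 and 1328 of 15122 genes had one in aortas and between 285 and 768 of 15943 in kidneys. DESeq2's Wald test called 0 of the 10 genes in all 8. Averaged over diets, the log2 difference lay between -0.23 (Gpx4) and 0.15 (Nnt) in aortas and between -0.08 (Gclm) and 0.14 (Gpx4) in kidneys. The widest gaps among the well-counted genes were those of Gpx4 (-0.36 ± 0.27, SE, adjusted p = 0.91) and Sod1 (-0.32 ± 0.24, SE, adjusted p = 0.91) in aortas under HFD, both of which followed the transcript length score, whose median was 0.47 in EC-EGFR-WT and -0.19 in EC-EGFR-KO aortas under HFD. With the score as a covariate these values were -0.05 and -0.04. That fit was chosen after the data were seen, and both genes are in the short set of the score. The part of the score in these gaps was not tested. A change limited to endothelium, a small part of either organ, was not resolved by these counts.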

How the data were processed

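Aortas and kidneys were profiled by paired-end RNA-seq. Which part of each organ gave the RNA was not given in the sources used here. The authors deposited counts per gene, one table per organ, made per the submitters' processing notes with HISAT2 2.1.0 and featureCounts on mm10, while the study's methods name TopHat2. The strand setting was not given in the sources used here. Genes with low counts were removed with edgeR's filterByExpr, and counts were scaled by TMM. Each organ was fitted over its 4 groups, and both organs together for comparisons between them, with edgeR 4.0.16 (glmQLFit, glmQLFTest; R 4.3.3) and Benjamini-Hochberg adjustment over all genes tested. Group of genotype and diet was the only term. Samples were grouped by their labels, and p-values measure the spread between 5 libraries per group, and 2 libraries of each organ may be 1 under different labels. DESeq2 1.42.0, other filters and scalings, subsets of libraries and covariates served as alternatives. The fit was tested on simulated data. The members and lists were chosen with earlier results of these data known. Named besides the 10 members were, per list, organ and comparison, at most 4 called genes with the largest change, otherwise the gene with the smallest p, and for each called member and Hmox1 the 3 genes most correlated with it. One result under this rule is not reported here. Lengths came from GENCODE M21. Genes on chromosomes 9, X, Y and the mitochondrial genome had 0 counts, as had many on chromosome 8 (1192 of 2535 with a count in kidneys), and were not analysed here.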

Additional observations from a re-analysis of the deposited data

Results flagged for a closer look

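In 3 of 80 groups of 5 libraries, where chance gives about 1 in 20, a single library lay far from the other 4. Sod3 was at 935 FPM in aorta R-5 (EC-EGFR-WT, SFD) against 736 to 779 FPM in the rest of its group. Cat was at 102 FPM in aorta R-20 (EC-EGFR-KO, HFD) against 78.4 to 84.9 FPM, and this library also had the lowest transcript length score of the aortas. Gpx4 was at 1202 FPM in kidney a12 (labelled EC-EGFR-WT, HFD) against 678 to 788 FPM, while the near-identical a1, labelled EC-EGFR-KO, was at 1232 FPM and did not stand apart from its own group.

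The effect of HFD differed between aortas and kidneys by edgeR's quasi-likelihood test of the difference. The log2 difference, aortas minus kidneys, was -0.88 for Gpx3, 0.49 for Sod3, 0.43 for Txnrd1, 0.38 for Gclm and 0.87 for Nnt, the last on at most 19 counts per aorta. Leaving out 1 library at a time ended the calls of Txnrd1 and Nnt in 23 of 40 fits each (adjusted p up to 0.085 and 0.087). Those of Gpx3, Sod3 and Gclm held in all 40. Without the near-identical libraries, only Gpx3 and Sod3 were called.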

How the results depend on the processing

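No paired analysis was possible because the groups share no replicate numbers in the labels. In kidneys under HFD, the fold and level limits of the study left 0 of the 10 genes in EC-EGFR-WT, 1 in EC-EGFR-KO and 0 averaged over genotypes, and the fit of the EC-EGFR-WT groups alone left 0. With the transcript length score as a covariate, a choice made after seeing the data like those of the proximal tubule score and of leaving out 3 libraries high in immediate-early genes, 5, 6 and 8 were called. For the difference between organs, the limits left 1, no filter 2 and leaving out the near-identical libraries 2, and leaving out 1 library at a time gave 3 to 6.

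The averaged change of Nnt in kidneys was 0.039 without the 3 immediate-early libraries, and -0.14 to 0.0051 leaving out 1 library at a time. That of Hmox1 was 0.0033 with no filter, 0.0024 without the near-identical pair, 0.019 with the length score, 0.26 without the 3 libraries, 0.16 with the proximal tubule score and -0.087 to 0.12 leaving out 1 library. The genotype difference of Gpx4 was 0.011 in aortas with an adipocyte score and -0.045 in kidneys with the length score, and its difference between organs ran from -0.014 to 0.18. The cause was not tested, and none of these was called.

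Counts over all genes moved more. In kidneys, 1069 calls in EC-EGFR-WT became 607 in the 2 groups alone and 2077 with the length score, 1011 in EC-EGFR-KO became 582 without the 3 libraries and 2057 with the score, and 2615 averaged became 4240 with the score. The difference between organs gave 1139, and 524 without the pair. In aortas, averaged over genotypes HFD gave 8, but 51 by DESeq2, 1 without the pair and 39 with the score. Genotype gave 3, but 45 by DESeq2, 131 without the pair and 65 with the score. Nnt, at 4 to 70 counts per library, is limited by depth.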
